A study of Danio rerio with 4 samples.

Results

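The Notch pathway genes described here are 4 receptors (notch1a, notch1b, notch2 and notch3), 4 ligands (dll4, jag1a, jag1b and jag2b) and 2 targets (hey1 and hey2). They were chosen by gene symbol, and all 10 were found among the 29027 rows of the deposited tables. The cells came from the trunk and tail of zebrafish at 47 hours post fertilization and had been sorted as doubly positive for kdrl:EGFP, which marks endothelium, and for lyve1:DsRed, which marks veins and lymphatics. All groups carried both transgenes, Tg(kdrl:EGFP);Tg(lyve1:DsRed). The group of homozygous mutants, tie1-/-, had been restricted to embryos with blood flow and held 2 libraries. Its siblings, tie1+/?, pooled wild-type and heterozygous embryos without separating them and also held 2 libraries. The tie1 allele and the number of embryos behind each library are not given in the sources used here. Nothing in the labels says that replicates came from separate clutches, so the spread between these libraries may be technical. The comparison asks whether Notch transcripts of these cells differ between tie1 mutants and their siblings.

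Notch receptors are cleaved when a Delta or Jagged ligand on a neighbouring cell binds them. The freed intracellular part enters the nucleus, joins the DNA-binding protein Rbpj and switches on repressors of the hairy family, the hey genes among them. In blood vessels the pathway is known for arterial identity and for restraining tip cells through the ligand Dll4, while veins and lymphatic vessels are generally regarded as settings of lower Notch activity.

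Expression was given as TPM, a transcript level corrected for length and library total that can be compared between genes. Read depth cannot be recovered from TPM. A level that unexpressed genes reach was therefore read in each library from 320 genes of sensory cells and lens (odorant, trace amine, vomeronasal and taste receptors and gamma crystallins). Their 95th percentile, called the background limit, was 13.6 and 19.0 TPM in mutant replicates 1 and 2 and 3.94 and 6.38 TPM in sibling replicates 1 and 2. Their median was 8.38 and 11.1 TPM in the mutants and 2.27 and 3.66 TPM in the siblings. Of 28301 genes tested by limma on log2(TPM + 1), 44.6% passed an adjusted p-value of 0.05 as higher in the mutants and 4.43% as lower, and the median log2 fold change was 1.17. Rescaling the libraries by the median of ratios brought that median to 0.03, a shift of more than 0.1 on the log2 scale, and left 0 genes called. The unadjusted p-value was then under 0.05 for 1218 genes in the higher and 4110 in the lower direction. Markers of endothelial identity summed to 2749 and 815 TPM over 19 genes in the mutants, against 7398 and 6384 TPM in the siblings, and 13 and 12 of them exceeded the limit in the mutants, against 18 and 18 in the siblings. The venous and lymphatic markers summed to 1199 and 474 TPM over 12 genes in the mutants, against 3201 and 2459 TPM in the siblings. None of these markers was at 0 in any library, and what part these shifts have in the values below was not tested. In bulk libraries fewer endothelial cells and less marker RNA per cell cannot be told apart. The targeted gene tie1 had 16.7 and 10.2 TPM in the mutants and 61.0 and 31.0 TPM in the siblings (limma log2 fold change -1.66, SE 0.78, adjusted p-value 0.0605).

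Against this background, notch1a was the only one of the 10 genes above the limit in all 4 libraries, and dll4 was above it in 3. The genes jag2b and hey2 exceeded it in 2 libraries each, and the other 6 (notch1b, notch2, notch3, jag1a, jag1b and hey1) stayed under it everywhere. Of all tested genes, 55.8% were under it in all 4 libraries. In siblings the order of mean TPM was led by dll4 (35.2), followed by notch1a (14.0), jag2b (10.1) and hey2 (7.71), with the other 6 between 2.51 and 3.46. In mutants notch1a came first (28.9), followed by dll4 (18.3) and jag2b (16.4), with the other 7 between 7.40 and 11.6. The libraries of dll4 and notch1a did not overlap in either group. From notch1a to jag2b and from jag2b to hey2 in siblings, and from dll4 downwards in mutants, neighbouring genes overlapped. Below hey2 the next sibling gene, jag1a, did not reach it, and the 6 lowest genes overlapped with their neighbours.

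**Figure D1:**
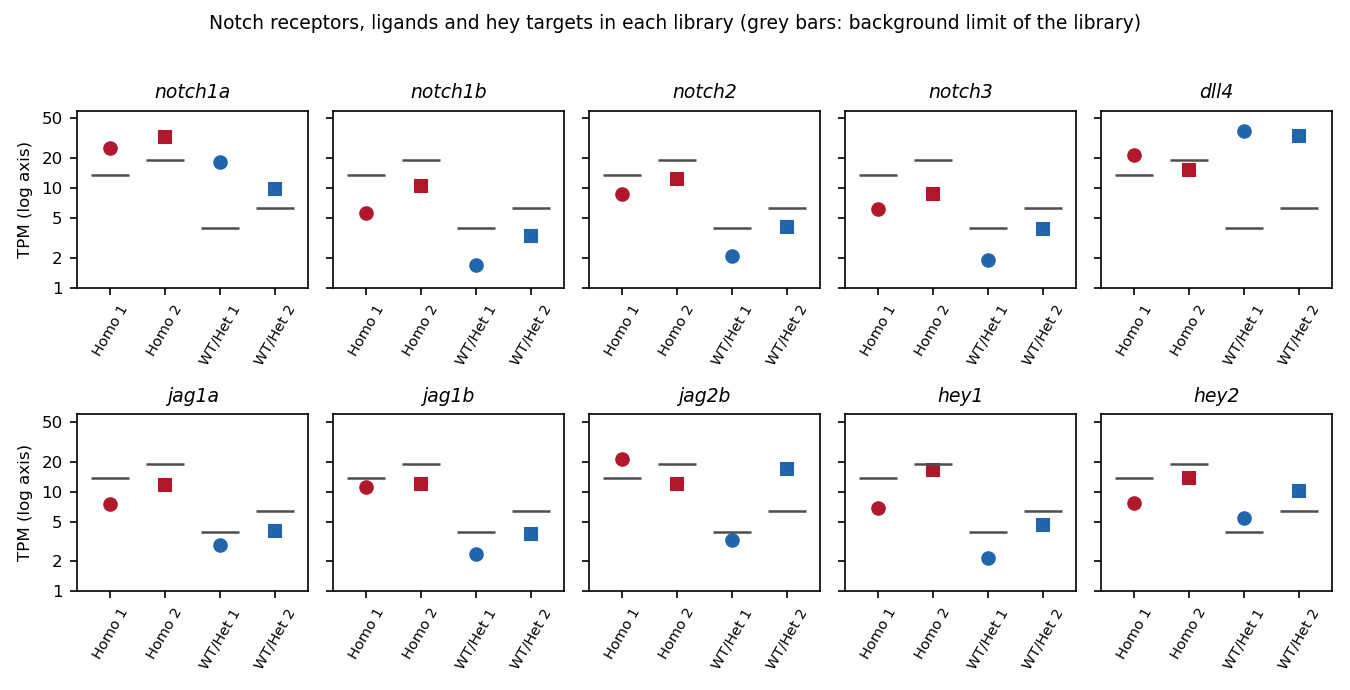
TPM (log axis) of the 10 Notch genes in each library, with tie1 Homo libraries in red and tie1 WT/Het libraries in blue, circles for replicate 1 and squares for replicate 2. Grey bars give the background limit of each library, 13.6 and 19.0 TPM in mutants and 3.94 and 6.38 TPM in siblings, and only the 4 points of notch1a all stand above their bars.

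The receptor notch1a had higher values in the mutants, and it is the receptor that stood clear of background. It is one of a pair of zebrafish counterparts of mammalian Notch1. It had 25.5 and 32.2 TPM in mutant replicates 1 and 2, against 18.4 and 9.70 TPM in sibling replicates 1 and 2, a mean of 28.9 ± 4.75 against 14.0 ± 6.15 TPM (SD, n = 2 each). Both mutant libraries were above both sibling libraries. The difference did not pass the threshold in limma (log2 fold change 1.04, SE 0.74, 95% interval -0.42 to 2.50, adjusted p-value 0.216). Within its library notch1a ranked at percentile 89.8 and 95.8 of all rows in the mutants and at 83.8 and 76.4 in the siblings. Multiplying a library by a factor leaves this measure as it is, but it depends on the other genes of the library. Genes above the limit numbered 5003 and 3013 in the mutants and 9982 and 9137 in the siblings. A rank can therefore rise without a rise in level. The pathway gene her4.2 had lower TPM in the mutants, yet its percentiles were 91.8 and 94.8 there and 91.1 and 89.8 in the siblings. Relative to the background median notch1a stood at 3.04 and 2.91 in the mutants and at 8.09 and 2.65 in the siblings, so the groups overlapped. After subtraction of that median it kept 17.1 and 21.1 TPM in the mutants and 16.1 and 6.03 TPM in the siblings. Median-of-ratios rescaling turned the direction round (log2 fold change -0.28), and the groups then overlapped. Over the alternatives its limma adjusted p-value lay between 0.0727 and 0.844. Outside vessels notch1a is known from neural progenitors. The neural marker list summed to 156 and 191 TPM over 14 genes in the mutants and to 110 and 164 TPM in the siblings, with 2 and 2 genes above the limit in the mutants and 5 and 6 in the siblings. These sums include the background of each library, which was higher in the mutants. The neuronal gene elavl3 was under the limit in all 4 libraries. For gap43 each library listed 0, below even the background median, so whether this row was measured is not known. The progenitor genes sox2, sox3, sox19a and gfap were above the limit in no mutant library. In the siblings gfap was above it in both libraries (4.97 and 7.97 TPM), sox3 in replicate 1 alone (34.3 TPM), and sox2 and sox19a in neither. The radial glia gene fabp7a was above it in both mutant libraries, with 45.8 and 33.0 TPM in the mutants and 2.24 and 38.6 TPM in the siblings, and its groups overlapped. By limma 6 of the 13 neural genes tested were called higher, fabp7a among them, and 0 lower, against 44.6% and 4.43% of all tested genes. The part of such cells in the notch1a values was not tested.

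The other 3 receptors were at the level of the sensory genes in both groups. The receptor notch1b, the other Notch1 counterpart, had 5.68 and 10.4 TPM in the mutants and 1.701 and 3.32 TPM in the siblings. The receptor notch2 had 8.70 and 12.2 TPM in the mutants and 2.104 and 4.04 TPM in the siblings. The receptor notch3, best known from mural cells that wrap vessels, had 6.14 and 8.67 TPM in the mutants and 1.89 and 3.85 TPM in the siblings. For all 3 genes the mutant libraries were above the sibling libraries, yet each of the 12 values was under the limit of its own library. Divided by the background median of the same library, notch1b came to 0.677 and 0.941 in the mutants and 0.748 and 0.906 in the siblings. For notch2 these ratios were 1.04 and 1.103 in the mutants and 0.925 and 1.103 in the siblings. They were 0.732 and 0.782 for notch3 in the mutants and 0.829 and 1.05 in the siblings. The limma fit called notch1b (log2 fold change 1.35, SE 0.53, adjusted p-value 0.0308) and notch2 (1.52, SE 0.54, 0.0225) higher, and notch3 missed the threshold (1.15, SE 0.53, 0.0571). Both calls were lost under median-of-ratios rescaling and quantile normalization, and the value of notch3 was then 0.04 and -0.15. The notch1b call was also lost without the eBayes trend. In the other direction, notch3 passed the threshold with rescaling to a common sum, with robust moderation, with the replicate block and without sibling replicate 2, and its limma adjusted p-value ranged from 0.0240 to 0.935 over the alternatives.

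Mural and fibroblast markers bear on notch3 because sorted endothelial cells can carry such cells with them. Their sum over 17 genes was 214 and 214 TPM in the mutants and 210 and 213 TPM in the siblings, and none was at 0. The list held 18 symbols, and the mural marker pdgfrb was not found among the rows, so its level could not be read. Each sum includes the background of its library, with a median per gene of 8.38 and 11.1 TPM in the mutants and 2.27 and 3.66 TPM in the siblings. Equal sums therefore do not mean equal levels above background. Of the 17 genes, 3 and 1 were above the limit in the mutants and 8 and 8 in the siblings. Smooth muscle actin, acta2, had 8.74 and 11.9 TPM in the mutants and 2.64 and 3.06 TPM in the siblings. The contractile gene tagln had 8.31 and 11.2 TPM in the mutants and 1.40 and 3.81 TPM in the siblings. Both were under the limit in all 4 libraries, as was the pericyte gene abcc9, with 6.45 and 12.8 TPM in the mutants and 2.65 and 3.18 TPM in the siblings. Above it in both libraries of a group were mostly matrix genes of wider expression. The collagen gene col1a1a had 64.4 and 34.0 TPM in the mutants and 88.6 and 87.5 TPM in the siblings, and col1a2 had 17.04 and 16.4 TPM in the mutants and 28.5 and 18.7 TPM in the siblings. The transcription factor foxc1a had 24.5 and 6.18 TPM in the mutants and 32.0 and 15.03 TPM in the siblings, and the proteoglycan gene dcn had 8.67 and 12.7 TPM in the mutants and 7.55 and 25.1 TPM in the siblings. By limma none of these 4 genes was called (adjusted p-values from 0.350 to 0.627). Of the 17 markers 8 were called higher, acta2, tagln and abcc9 among them, and 0 lower, against 44.6% and 4.43% of all tested genes.

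Among the ligands, dll4 was the member with the highest level in siblings and the only one of the 10 with a lower mean in the mutants. Dll4 is the Delta ligand of sprouting and arterial endothelium. It had 21.5 and 15.09 TPM in mutant replicates 1 and 2, against 37.3 and 33.1 TPM in sibling replicates 1 and 2, a mean of 18.3 ± 4.52 against 35.2 ± 2.98 TPM (SD, n = 2 each). Both mutant libraries were below both sibling libraries, and mutant replicate 2 was under its background limit. The linear ratio of the means was 0.519. The difference did not pass the threshold in limma (log2 fold change -0.93, SE 0.78, 95% interval -2.46 to 0.61, adjusted p-value 0.298). The direction was the same in all 15 alternatives, with log2 fold changes from -2.25 to -0.43 and limma adjusted p-values from 0.167 to 0.785. Because the groups did not overlap as deposited, only the 4 scalings among these could have turned the direction round. Relative to the background median, dll4 stood at 2.56 and 1.36 in the mutants and at 16.4 and 9.04 in the siblings. After subtraction of that median 13.1 and 4.002 TPM were left in the mutants and 35.1 and 29.5 TPM in the siblings. Its rank within the library was at percentile 88.4 and 81.9 in the mutants and at 89.8 and 89.5 in the siblings. The endothelial marker list, with sums given above, was lower in the same libraries, and its part in the dll4 values was not tested. Of the 1529 tested genes with a mean of 20 to 35 TPM, which include dll4 and notch1a, 779 had groups apart in the lower direction. In the higher direction there were 122, and the median log2 fold change of these 1529 genes was -0.86.

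**Figure D2:**
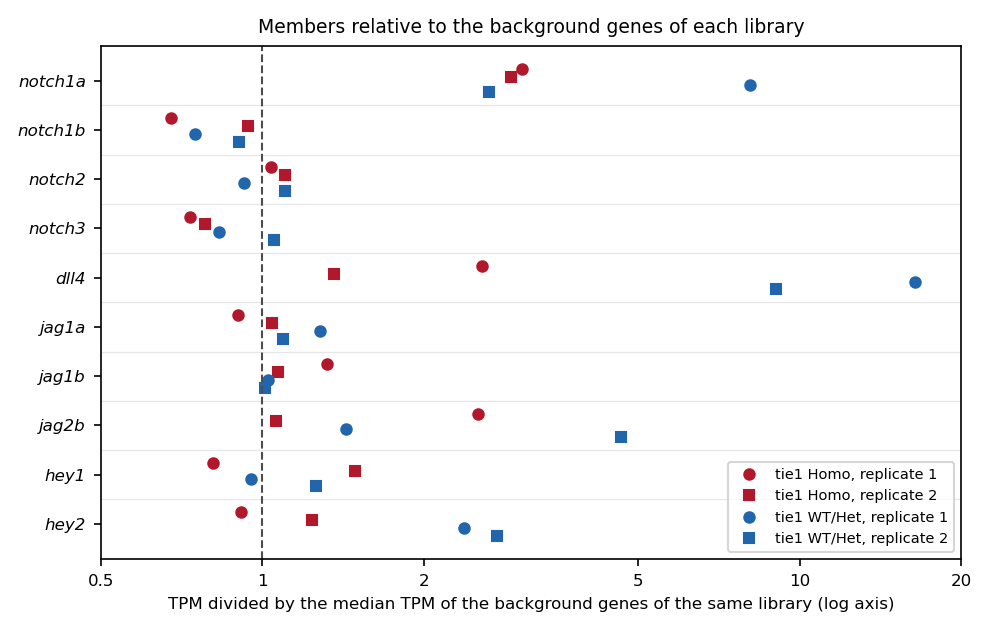
TPM of each gene divided by the median TPM of the 320 background genes of the same library (log axis), with tie1 Homo libraries in red above tie1 WT/Het libraries in blue. The dashed line marks a ratio of 1, where most members lie in all 4 libraries, while dll4 reaches 16.4 and 9.04 in siblings and 2.56 and 1.36 in mutants.

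The levels of notch1a and dll4 were in opposite order in the groups. The ratio of notch1a to dll4 TPM within a library was 1.19 and 2.14 in mutant replicates 1 and 2 and 0.493 and 0.293 in sibling replicates 1 and 2. A ratio inside a library is untouched by the scale of that library, although background adds to both of its terms. With the background median subtracted, notch1a still had the higher level in both mutant libraries and dll4 in both sibling libraries. This ratio was chosen after the values were seen and has no test. For every member whose groups did not overlap, notch1a and dll4 included, a two-sided exact permutation test gave p = 0.333, the smallest that 2 libraries against 2 allow.

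Of the 3 Jagged ligands, jag1a and jag1b were under the limits throughout and jag2b was not. Jagged ligands act on the same receptors as Delta ligands and, in mammalian sprouting vessels, are known to oppose Dll4. The ligand jag1a had 7.54 and 11.5 TPM in the mutants and 2.91 and 4.01 TPM in the siblings. Its paralogue jag1b had 11.1 and 11.8 TPM in the mutants and 2.33 and 3.71 TPM in the siblings. All values of both genes were under the limits, and the groups did not overlap. Both were called higher by limma (jag1a log2 fold change 1.23, SE 0.54, adjusted p-value 0.0479; jag1b 1.65, SE 0.54, 0.0182). Neither call held under median-of-ratios rescaling or quantile normalization, and for jag1a quantile normalization gave -0.031. The jag1a call was also lost with a pseudocount of 0.1, with no filter on low values and without the eBayes trend, and its limma adjusted p-value ranged from 0.0229 to 0.973 over the alternatives. Of the members under the limit, jag1b had the highest ratio to the background median in mutant replicate 1, at 1.32, against 1.07 in mutant replicate 2 and 1.03 and 1.01 in the siblings.

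The ligand jag2b varied more between replicates than between groups. It had 21.1 and 11.8 TPM in mutant replicates 1 and 2 and 3.26 and 17.03 TPM in sibling replicates 1 and 2. The groups overlapped, and in each of them 1 library was above its limit and 1 was not. The limma log2 fold change was 0.94 (SE 0.65, adjusted p-value 0.199). Without sibling replicate 2 it was 1.98 and passed the threshold (limma adjusted p-value 0.0208), and without sibling replicate 1 it was -0.10. Over the alternatives its limma adjusted p-value lay between 0.0208 and 0.955.

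The hey genes encode basic helix-loop-helix repressors that are direct targets of Notch in endothelium, and zebrafish hey2 is the gridlock gene of aorta formation. The target hey1 had 6.79 and 16.5 TPM in the mutants and 2.16 and 4.61 TPM in the siblings. All 4 values were under the limits, and the groups did not overlap. It was called higher by limma (log2 fold change 1.47, SE 0.54, adjusted p-value 0.0257), and the call was lost under median-of-ratios rescaling, quantile normalization and background subtraction. The 2 mutant libraries stood on either side of the background median, with ratios of 0.810 and 1.49, against 0.951 and 1.26 in the siblings.

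The target hey2 exceeded the limit in neither mutant library but in both sibling libraries. It had 7.63 and 13.7 TPM in the mutants and 5.39 and 10.03 TPM in the siblings, so the groups overlapped. The limma log2 fold change was 0.42 (SE 0.60, 95% interval -0.76 to 1.61, adjusted p-value 0.546). Its ratio to the background median was 0.911 and 1.24 in the mutants and 2.37 and 2.74 in the siblings. The direction of its fold change depended on the scaling, at -0.82 with median-of-ratios rescaling, -0.33 with quantile normalization and -1.54 with background subtraction. The limma adjusted p-value of hey2 lay between 0.271 and 0.976 over the alternatives.

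Counted together, 5 of the 10 members were called higher by limma and 0 lower, where the whole table had 44.6% and 4.43%. By unadjusted p-value, 6 were under 0.05 in the higher and 0 in the lower direction, against 53.8% and 6.02% of all tested genes. The 5 were notch1b, notch2, jag1a, jag1b and hey1, all under the background limit in every library. The groups did not overlap in the higher direction for 7 members and in the lower direction for 1, against 65.8% and 12% of all tested genes. The median log2 fold change of the members was 1.19 and that of all tested genes 1.17. Of the 319 sensory and lens genes tested, 236 were called higher, with a median of 1.47. With median-of-ratios rescaling 0 members were called by limma, and 1 in the lower direction (dll4) had an unadjusted p-value under 0.05. The groups were then apart for notch2 and jag1b in the higher direction and for dll4 and hey2 in the lower, where the table had 27.8% and 26.9%. Leaving out mutant replicate 1, mutant replicate 2 or sibling replicate 1 likewise left 0 members called, and without sibling replicate 2 there were 7.

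**Figure D3:**
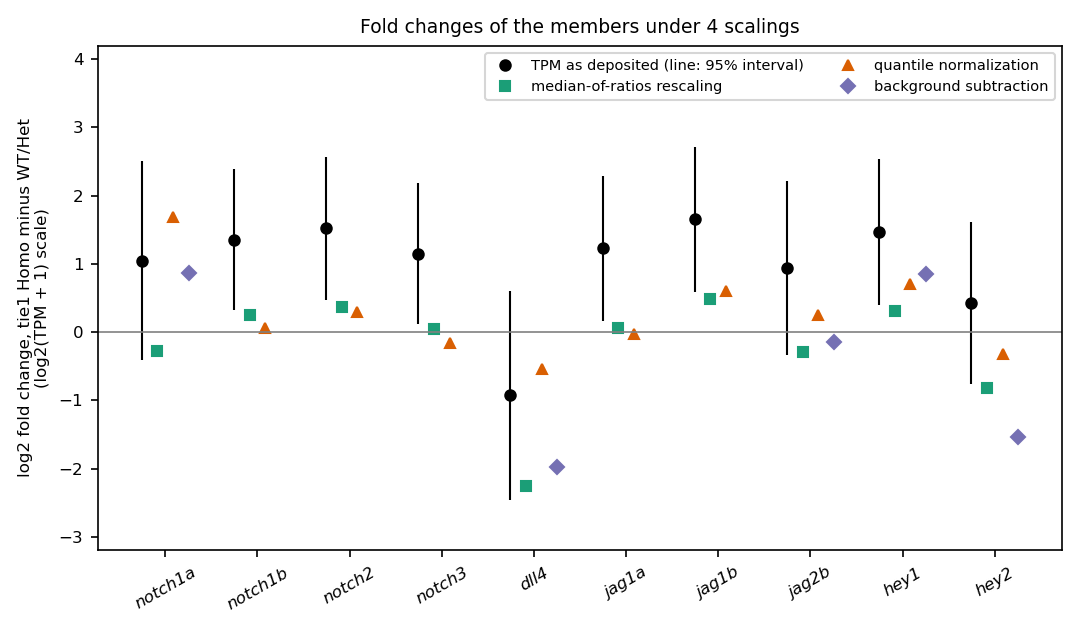
Log2 fold change, tie1 Homo minus tie1 WT/Het on the log2(TPM + 1) scale, of the 10 members with TPM as deposited (black, line for the 95% interval of limma) and under 3 other scalings. Only dll4 lies below 0 under every scaling shown; under background subtraction 5 members fell under the minimum mean of 1 TPM and have no symbol.

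The rest of the pathway was read from 74 further symbols, of which 66 were found and tested. By limma, 16 were called higher and 3 lower in the mutants, where the whole table had 44.6% and 4.43%, with a log2 fold change of 0.81 at the median. Of the 16, 15 were among the 23 genes that no library had above its background limit. Over the whole table, 70.2% of the genes under the limit throughout were called higher. The 3 called lower were among the 28 pathway genes above the limit in both libraries of a group, of which 0 were called higher. Of all tested genes at that level, 16.4% were called lower and 4.36% higher.

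The 3 genes called lower were mfng, her6 and pofut1. Manic fringe, mfng, adds a sugar to the receptors that shifts their preference between Delta and Jagged ligands. It was the most abundant of the 66, with 135 and 18.4 TPM in mutant replicates 1 and 2 and 338 and 281 TPM in sibling replicates 1 and 2 (limma log2 fold change -2.59, SE 0.94, adjusted p-value 0.0244). The hairy-related repressor her6 had 72.1 and 25.7 TPM in the mutants and 309 and 151 TPM in the siblings (limma log2 fold change -2.30, SE 0.93, adjusted p-value 0.0350). The gene pofut1 encodes the enzyme that puts the first fucose on the receptors, on which fringe enzymes then build. It had 6.22 and 9.34 TPM in the mutants and 28.7 and 24.5 TPM in the siblings (limma log2 fold change -1.67, SE 0.69, adjusted p-value 0.0382), and in the mutants it was under the limit. For these 3 genes the groups did not overlap and the direction was lower under all 4 other scalings, though none was called with median-of-ratios rescaling, quantile normalization or background subtraction. With rescaling to a common sum mfng and her6 were called and pofut1 was not (limma adjusted p-values 0.0270, 0.0470 and 0.159). Without mutant replicate 2, or without sibling replicate 1, 0 of the 66 genes were called lower, and without sibling replicate 2 there was 1.

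Another enzyme of receptor glycosylation, lunatic fringe or lfng, had 20.9 and 19.5 TPM in the mutants and 62.5 and 71.8 TPM in the siblings. Its groups did not overlap under any of the 5 scalings, but it missed the threshold (limma log2 fold change -1.68, SE 0.84, adjusted p-value 0.0764). Of the 5 glycosylation genes, 2 were called lower and 0 higher, against 4.43% and 44.6% of all tested genes. The 5 had a median log2 fold change of -1.67, against 1.17 for all tested genes. In the siblings 4 and 5 of them were above the limit. Of tested genes above the limit in both libraries of a group, 16.4% were called lower and 4.36% higher. The 10 genes of receptor turnover, among them numb and itcha, had a median of 1.28, with 5 called higher and 0 lower, a share near the 44.6% of all tested genes. For these 10 genes 0 values in the mutant libraries were above the limit, against 3 and 1 in the siblings.

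**Figure D4:**
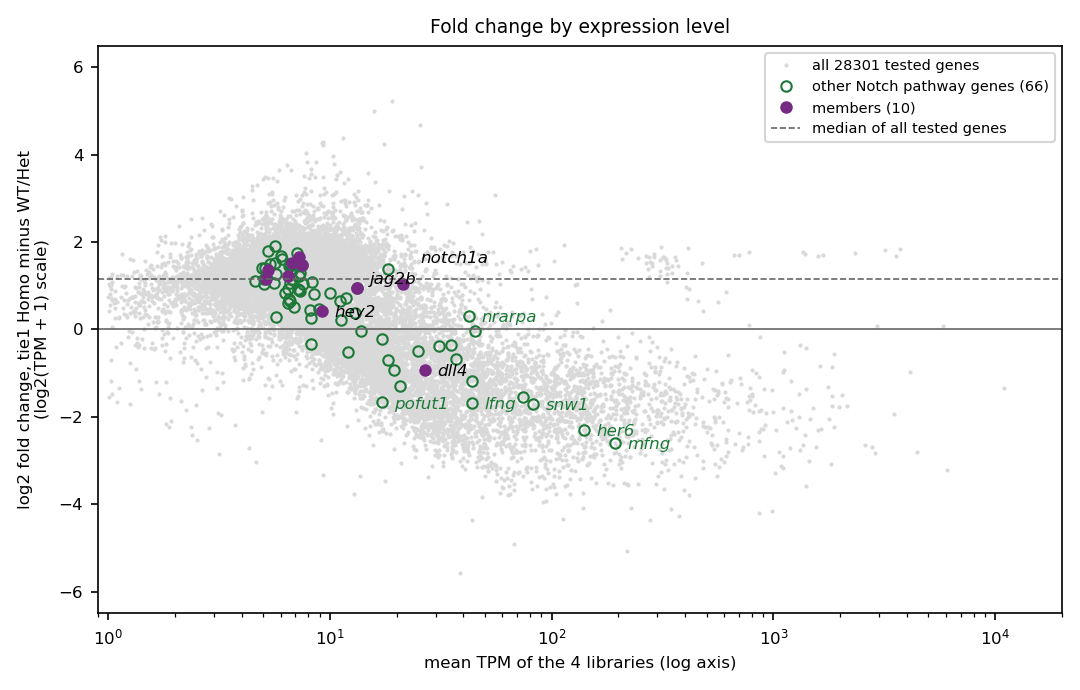
Log2 fold change, tie1 Homo minus tie1 WT/Het on the log2(TPM + 1) scale, against mean TPM of the 4 libraries (log axis), for all 28301 tested genes in grey, the 66 other pathway genes as green rings and the 10 members in purple. The dashed line is the median of all genes at 1.17, most genes of low level lie above 0, and mfng and her6, the most abundant pathway genes, lie at -2.59 and -2.30.

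The machinery that cleaves the receptors gave no call among 10 genes, where all tested genes had 44.6% called higher and 4.43% lower. Above the limit were 10 and 7 of them in the siblings and 4 and 1 in the mutants. The metalloprotease adam10a, which makes the outer cut, had 16.8 and 23.4 TPM in the mutants and 39.2 and 20.6 TPM in the siblings. Of the subunits of gamma-secretase, which makes the inner cut, psenen had 43.3 and 14.8 TPM in the mutants and 57.8 and 59.7 TPM in the siblings. The subunit aph1b had 71.6 and 14.3 TPM in the mutants and 81.3 and 13.0 TPM in the siblings, so that replicates differed more than groups did. The limma adjusted p-values of these 3 genes were 0.577, 0.220 and 0.979.

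In the nuclear complex 3 of 11 genes were called higher and 0 lower, where all tested genes had 44.6% and 4.43%. The coactivator and splicing factor snw1 had 44.4 and 28.7 TPM in the mutants and 176 and 80.6 TPM in the siblings, with groups that did not overlap and a limma adjusted p-value of 0.0929. The gene rbpjl, a relative of the DNA-binding partner Rbpj, was called higher (limma adjusted p-value 0.0143) with 9.87 and 12.9 TPM in the mutants and 1.88 and 3.64 TPM in the siblings, all under the limits. Of the Delta ligands outside the 10 members, dlc was above the limit in all 4 libraries, with 32.4 and 20.2 TPM in the mutants and 49.0 and 23.2 TPM in the siblings, and its groups overlapped. The ligand dlb was called higher (limma adjusted p-value 0.0267) with 11.04 and 12.0 TPM in the mutants and 3.003 and 4.04 TPM in the siblings, again under the limits throughout.

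Among 19 further genes listed as targets, 3 were called higher and 1, her6, lower, where all tested genes had 44.6% and 4.43%. Whether each gene of this list follows Notch activity in these cells was not tested. The feedback inhibitor nrarpa, whose expression follows Notch activity in many tissues, had 49.9 and 43.8 TPM in the mutants and 32.6 and 42.7 TPM in the siblings. It was above the limit in all 4 libraries and was not called (limma log2 fold change 0.32, SE 0.85, adjusted p-value 0.755), and median-of-ratios rescaling gave -1.04. The repressor her9 had 56.5 and 21.4 TPM in the mutants and 145.7 and 73.4 TPM in the siblings, with a limma adjusted p-value of 0.126. The repressor gene hes6 had 27.3 and 28.7 TPM in the mutants and 38.7 and 53.5 TPM in the siblings, and quantile normalization turned its direction round. For her4.2 the values were 33.7 and 27.9 TPM in the mutants and 45.5 and 34.4 TPM in the siblings, and the direction turned round with quantile normalization and with rescaling to a common sum. Its copy her4.1 had 48.8 and 9.37 TPM in the mutants and 7.13 and 8.22 TPM in the siblings, with the mutant libraries above the sibling libraries, and was not called (limma adjusted p-value 0.0695). The her4 genes are near-identical copies whose reads can be split between them, so the level of any one copy is uncertain. The gene her2 was called higher (limma adjusted p-value 0.0398) although its groups overlapped, with 6.78 and 12.8 TPM in the mutants and 0.812 and 9.06 TPM in the siblings, and background subtraction turned its direction round.

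**Figure D5:**
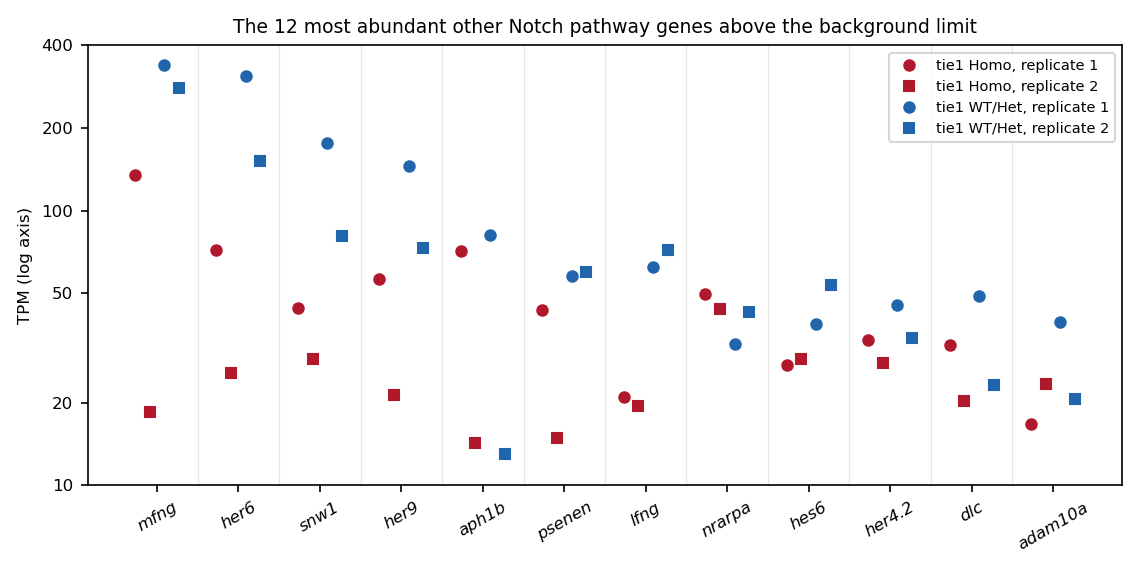
TPM (log axis) of the 12 pathway genes outside the 10 members with the highest mean among those above the background limit in both libraries of a group, with tie1 Homo libraries in red left of tie1 WT/Het libraries in blue. The groups are apart for mfng, her6, snw1, her9, psenen, lfng, nrarpa, hes6 and her4.2, and nrarpa is the one of these with higher values in the mutants.

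Arterial markers were examined because Notch ligands and hey genes are textbook arterial genes and the sort was meant for veins and lymphatics. Of the 13 found, 6 were called higher and 2 lower, where all tested genes had 44.6% and 4.43%. The median log2 fold change was 1.40, against 1.17 for all tested genes. Of those called higher, tbx20, unc5b, sox17, mecom and sema3gb were under the limit in every library. Above the limit were 5 and 2 of the 13 genes in the mutants and 7 and 7 in the siblings. The 13 genes summed to 784 and 266 TPM in the mutants and 1047 and 1098 TPM in the siblings. Of these sums etv2 made up 488 and 49.5 TPM in the mutants and 724 and 757 TPM in the siblings. It is an early endothelial factor with no arterial restriction, also counted in the endothelial list. The arterial ligand efnb2a had 16.97 and 10.95 TPM in the mutants and 2.65 and 5.36 TPM in the siblings, and exceeded a limit in mutant replicate 1 alone. The chemokine receptor cxcr4a had 40.3 and 6.24 TPM in the mutants and 28.4 and 34.2 TPM in the siblings, and its groups overlapped. Its paralogue cxcr4b was called lower, with 9.23 and 12.7 TPM in the mutants and 36.3 and 54.5 TPM in the siblings (limma log2 fold change -1.95, SE 0.76, adjusted p-value 0.0314). The cell cycle inhibitor cdkn1bb had 112 and 85.9 TPM in the mutants and 222 and 196 TPM in the siblings and was not called (limma adjusted p-value 0.318).

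The genes whose levels over the 4 libraries were nearest to those of a member were found by Euclidean distance of log2(TPM + 1) for notch1a, dll4 and hey2, the members above the limit in both libraries of a group. For dll4 they were usf1l (distance 0.187) and fam210b (0.203). For hey2 they were dip2ba (0.127) and ncoa3 (0.183). For notch1a they were a zgc and a si:rp71 gene with clone-based names, at distances of 0.209 and 0.379. With 4 libraries, such likeness is a description of these values only.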

How the data were processed

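For each library the authors deposited a table of TPM, the unit in the file headers. Trim Galore 0.6.6, cutadapt 2.8, HISAT2 2.2.1, SAMtools 1.7, StringTie 2.1.4 and the build GRCz11 are named in the submitters' processing notes, without their roles. The annotation and any filters are not given in the sources used here, and no coordinates are printed. The listed rows summed to 602394 and 481065 TPM in mutant replicates 1 and 2 and to 813042 and 736606 TPM in sibling replicates 1 and 2. The scale therefore also covers features not analysed here, and these took a larger part of it in the mutants. What part this has in the values was not tested. Depth is unknown and no counting interval was computed. No pair of libraries was identical.

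Groups and replicate numbers came from the sample titles. Mutants were compared with siblings on log2(TPM + 1) in a limma 3.58.1 fit of group alone (R 4.3.3), for rows averaging 1 TPM or more, with trended eBayes, two-sided tests and Benjamini-Hochberg adjustment over all tested genes (threshold 0.05). Fold changes understate those of low genes. In the main fit the variance moderation gave nearly all weight to the trend, so its SE or p-value does not measure the spread of that gene's own replicates. Prior degrees of freedom were 2.96 with median-of-ratios rescaling, 2.98 with quantile normalization, 3.42 with background subtraction and 3.18 with the replicate block. A gene's own spread weighed more in those fits, so their p-values are not on the same footing as the main ones. Exact permutation tests used scipy 1.17.1. The fit was tested on simulated data in which both groups had the same mean for all but a few genes. That test does not cover a shift of most genes between groups, as in these libraries. The members, lists and tests were chosen with earlier results of these data known. Named were the 10 members, tie1, the 12 most abundant other pathway genes above the background limit in both libraries of a group, the 3 most abundant called in each direction, up to 4 arterial and 4 mural markers above the limit, and the 2 genes nearest to each member above it. Genes outside this rule (acta2, tagln, abcc9, elavl3, gap43, sox2, sox3, sox19a, gfap, fabp7a, her4.1, efnb2a, tbx20, unc5b, sox17, mecom, sema3gb, numb, itcha, rfng, poglut1) were chosen after their values were seen. Alternatives covered pseudocounts, filters, 4 scalings, variance moderation, a replicate block and leaving out each library.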

Additional observations from a re-analysis of the deposited data

How the results depend on the processing

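The counts with all libraries were 12618 genes called higher and 1255 lower, 5 and 0 of the members, and 16 and 3 of the other pathway genes. Median-of-ratios rescaling, quantile normalization and background subtraction each gave 0 calls in both directions for all of these; the cause was not tested. The members whose groups were apart, 7 higher and 1 lower, became 2 and 2 with median-of-ratios rescaling, 3 and 2 with quantile normalization and 1 and 2 with background subtraction, which tested 5 members. Over all tested genes, groups were apart for 27.8% and 26.9% with median-of-ratios rescaling. With quantile normalization this held for 6657 and 5732 of 28301 genes, and with background subtraction for 2091 and 5826 of 14245. Without the trend in eBayes there were 8103 and 1986 calls over all genes, 3 members called higher and 6 other pathway genes called lower. Rescaling the listed rows to 1000000 gave 718 genes called lower.

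With the replicate number as a block, 15263 genes were called higher and 666 lower, 6 members higher, and 22 other pathway genes higher and 1 lower. The numbers are shared only as numbers, because the labels name no common litter or day; the deviations of same-numbered libraries from their group means correlated with r = 0.130 across 28301 genes, which are not independent replicates.

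Leaving out 1 library at a time gave 460 to 14087 genes called higher and 66 to 1723 lower. The members called higher ranged from 0 to 7, with 0 called lower in each case, and other pathway genes from 0 to 21 higher and 0 to 4 lower. In these fits the group with 1 library is assumed to vary like the other.

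Signs reversed for notch1a with median-of-ratios rescaling (-0.28), for notch3 (-0.15) and jag1a (-0.031) with quantile normalization, and for jag2b with median-of-ratios rescaling (-0.29), background subtraction (-0.15) and without sibling replicate 1 (-0.10, against 1.98 without sibling replicate 2). For hey2 they reversed with median-of-ratios rescaling (-0.82), quantile normalization (-0.33) and background subtraction (-1.54). The signs of notch1b, notch2, dll4, jag1b, hey1 and tie1 were the same in every alternative that tested them. Groups of these genes did not overlap as deposited, so only the scalings could have changed their signs. Background subtraction gave no value for notch1b, notch2 and jag1b. Pseudocounts of 0.1 and 5, no filter, a minimum mean of 5 TPM and robust moderation kept every count within 1.5 times, although the jag1a call was lost with the pseudocount of 0.1 and with no filter.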
